A study of Mus musculus with 6 samples.

Results

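The genes *Lum*, *Dcn*, *Bgn*, *Vcan*, *Fn1*, *Eln*, *Postn*, *Thbs1*, *Thbs2* and *Sparc*, which encode small and large proteoglycans, fibronectin, elastin and matricellular proteins of the extracellular matrix, were described in livers of mice with diet-induced metabolic dysfunction-associated steatohepatitis (MASH). They were listed by name for what their proteins do, with earlier results of these data known, and are 10 of the 25403 genes listed in the count table. All 10 passed the filter on low counts that left 14496 genes for testing. Poly(A) RNA from 3 WT and 3 *Themis*-KO livers was sequenced, 1 library per liver. The WT mice were wild-type C57BL6/J, and the *Themis*-KO mice lacked THEMIS in the whole body rather than in a single cell type. Every mouse, WT mice included, was given a MASH diet, in which fat gave 40% and fructose 20% of the energy and cholesterol was added at 2%, from an age of 10 to 12 weeks for 3 months, so that no liver without the diet stands beside them. Nothing in the labels says whether the livers came from separate litters or cages, and p-values measure only the spread between these samples.

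Small leucine-rich proteoglycans coat collagen fibrils and limit their diameter, and decorin and biglycan also bind TGF-β. Matricellular proteins such as thrombospondins, periostin and SPARC are secreted into the matrix during repair, where they act on receptors and growth factors more than as a scaffold. In liver, most of these proteins are made by stellate cells and portal fibroblasts, whereas hepatocytes secrete the plasma form of fibronectin.

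The deposited values are estimated read counts per gene, which are given here as CPM, the share of a gene in its library scaled to a common total, after TMM normalization, a correction for differences in library composition. Libraries held 20679642 to 25649767 counts, and the 10 genes together took 0.143% to 0.198% of them. Counts of *Themis* did not separate the labels, at 8.07, 25.6 and 12.0 CPM in WT and 8.63, 7.74 and 9.97 CPM in *Themis*-KO livers (log2 fold change -0.79, SE 0.38, adjusted p = 0.199 by edgeR's quasi-likelihood test), so that genotype below means the label of a library. The share of *Gm28438* in the summed CPM of *mt-Nd3* and *Gm28438* set WT livers 1 and 2 apart, with 96.6% and 96.8% against 2.20% to 3.26% in the other 4 livers. This split, called the mitochondrial type here, partly follows the genotype label. The name stands for that share alone, as no label gives a mitochondrial type. Hepatocyte markers such as *Alb* and *Apoa1* were present in every liver and summed to 65356 to 74631 CPM in WT and 56337 to 59231 CPM in *Themis*-KO livers.

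The promoters of *Postn* and *Bgn*, which differed between the labels in the comparison below, are shown because the letters next to their starts are unlike. Each is the 250 bases upstream of a RefSeq transcription start on GRCm38.p6, 5′ to 3′ on the strand of the gene, with matches to the letters searched in capitals.
Postn, chr3:54360857-54361106, + strand: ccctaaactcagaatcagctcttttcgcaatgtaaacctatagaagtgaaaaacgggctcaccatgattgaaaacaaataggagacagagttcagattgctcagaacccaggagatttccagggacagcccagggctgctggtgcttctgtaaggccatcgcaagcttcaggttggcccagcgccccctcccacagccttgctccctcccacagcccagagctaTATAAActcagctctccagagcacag
Bgn, chrX:73483351-73483600, + strand: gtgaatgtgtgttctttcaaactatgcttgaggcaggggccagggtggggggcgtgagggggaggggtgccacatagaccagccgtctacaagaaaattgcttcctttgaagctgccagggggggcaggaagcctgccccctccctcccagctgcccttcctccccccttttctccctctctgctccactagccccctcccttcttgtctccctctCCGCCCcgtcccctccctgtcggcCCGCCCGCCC
In *Postn* the capitals mark TATAAA, the TATA box letters, 26 bases before the start. RefSeq lists a further *Postn* start upstream, at chr3:54359267, whose window held no TATAAA and a CCAAT match on the opposite strand. In *Bgn* they mark 3 matches to GGGCGG, the GC box letters, on the opposite strand, starting 34, 10 and 6 bases before the start, of which the last pair overlap. RefSeq promoters were at hand for 5 of the 10 genes, *Bgn*, *Postn*, *Sparc*, *Thbs2* and *Vcan*, each from 250 bases before to 50 bases after a start. Searched on both strands, TATAAA was found in 13.6% of all 32851 promoters of this length and GGGCGG in 35.7%. *Thbs2* held TATAAA on the opposite strand and CCAAT on both strands, and *Vcan* held GGGCGG on both strands and CCAAT on the opposite strand, where CCAAT occurred in 37.4% of promoters. None of the 5 genes held TGANTCA (7.81% of promoters), the AP-1 letters, or GGAATG (14.7%), the TEAD letters. The *Sparc* window held none of the 5 motifs, but its RefSeq start lies 3103 bp from the annotated start of the gene. The bases before that start, chr11:55420081-55420330, lie inside the annotated *Sparc* gene. They overlap an exon of 1 annotated gene, a count in which *Sparc* itself was not left out, so the window may not be the main *Sparc* promoter. A match is only a match of letters.

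At an adjusted p under 0.05, 6 of the 10 genes were higher in *Themis*-KO livers: *Lum*, *Dcn*, *Bgn*, *Eln*, *Postn* and *Sparc*. Over all genes tested, 4.97% were higher and 4.14% lower by the same rule. Their increases ran from 1.31-fold for *Dcn* to 1.86-fold for *Eln*, and none of the 6 reached 2-fold, a size that 1.86% of all genes reached with an adjusted p under 0.05. No gene of the 10 was lower, either by edgeR or by DESeq2, and 0 were lower at an unadjusted p under 0.05. *Thbs1* and *Vcan* had the largest estimated differences and missed the threshold, *Thbs2* missed it with a small difference, and *Fn1*, the most abundant, had an estimate near 0. The median log2 fold change of the 10 genes was 0.75, against 0.0095 over all genes tested. In whole-liver RNA, more cells that make a transcript and more transcript per cell cannot be told apart.

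**Figure D1:**
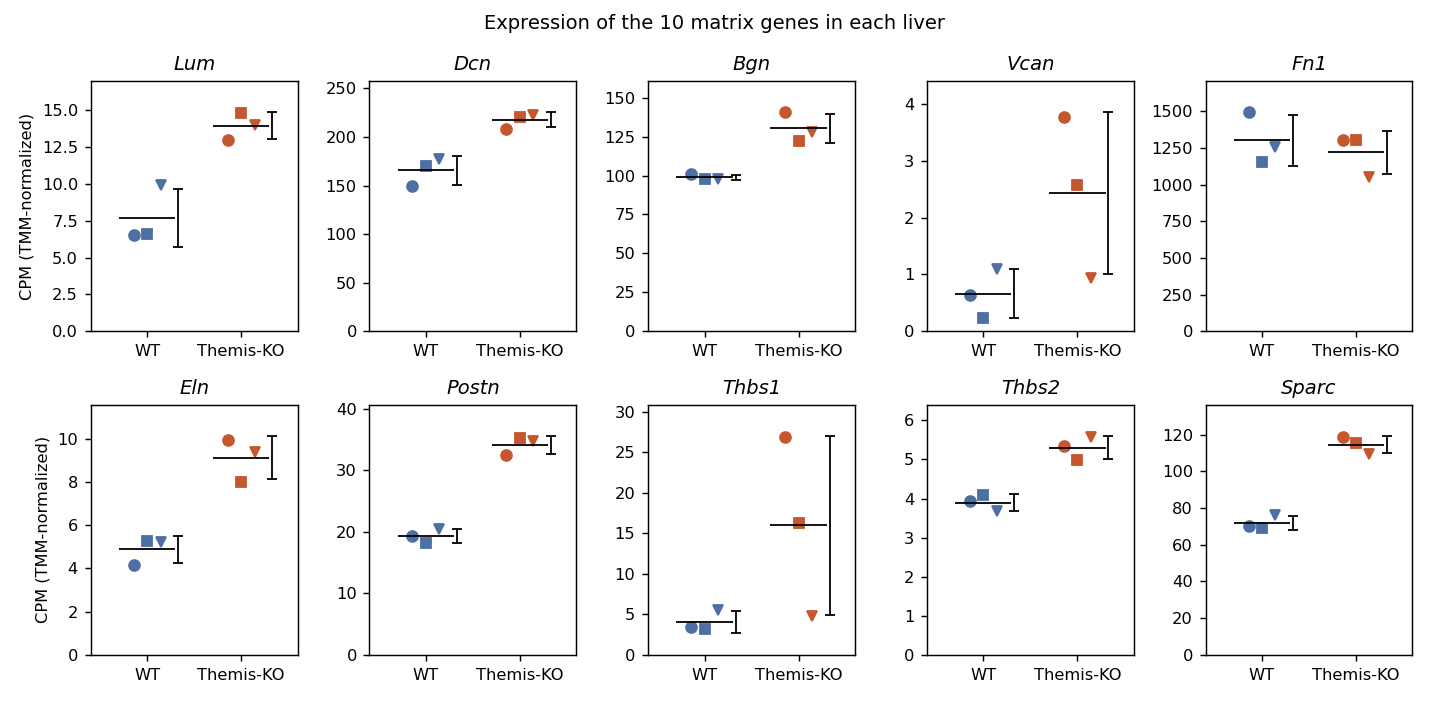
TMM-normalized CPM (vertical axes, each from 0) of the 10 genes in each of the 3 WT (blue) and 3 *Themis*-KO (orange) livers, with circles, squares and triangles for replicates 1, 2 and 3, lines for group means and bars for ± SD. In 7 panels every *Themis*-KO liver lies above every WT liver, and in *Vcan*, *Fn1* and *Thbs1* the groups overlap.

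*Lum* encodes lumican, a keratan sulfate proteoglycan that binds fibrillar collagen (ENSMUSG00000036446, chr10:97565128-97572703 on the plus strand of GRCm38, 3 exons). WT livers held 6.56, 6.57 and 9.94 CPM of *Lum*, and *Themis*-KO livers held 13.0, 14.8 and 14.0 CPM. Every *Themis*-KO liver lay above the highest WT liver, WT 3, and the WT livers were the more spread of the groups. Its level was 1.81-fold higher in *Themis*-KO livers (log2 fold change 0.85, SE 0.18, adjusted p = 0.0351).

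*Dcn* encodes decorin, a proteoglycan with a single chondroitin or dermatan sulfate chain (ENSMUSG00000019929, chr10:97479609-97518143, plus strand, 8 exons in its longest coding transcript). It measured 149, 170 and 178 CPM in WT livers and 209, 221 and 223 CPM in *Themis*-KO livers. The groups did not overlap, and the gap between them was about as wide as the WT spread. The log2 fold change of *Dcn* was 0.39 (SE 0.093, adjusted p = 0.0423), or 1.31-fold.

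*Bgn* encodes biglycan, the closest relative of decorin, which released from matrix is a ligand of TLR2 and TLR4 (ENSMUSG00000031375, chrX:73483602-73495933, plus strand). WT livers were within a narrow band at 101, 97.9 and 98.1 CPM of *Bgn*, and *Themis*-KO livers were at 141, 122 and 128 CPM. All *Themis*-KO livers stood above that band, with *Themis*-KO 1 the highest. The difference was 0.40 on the log2 scale (SE 0.083, adjusted p = 0.0345), or 1.32-fold.

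*Lum* and *Dcn* lie next to each other on chromosome 10, 46984 bp apart on the same strand, with 0 genes annotated between them. Within a liver, *Lum* counts per *Dcn* count were 0.044, 0.0387 and 0.056 in WT and 0.0623, 0.0672 and 0.0627 in *Themis*-KO livers, with every *Themis*-KO liver above every WT liver (exact two-sided permutation p = 0.1, the smallest that 3 livers against 3 allow). *Bgn* counts per *Dcn* count overlapped, at 0.552 to 0.677 in WT and 0.554 to 0.674 in *Themis*-KO livers (exact permutation p = 0.8). *Lum* therefore had the larger difference of these neighbours, whereas *Bgn* and *Dcn* kept a similar range of proportions. *Themis* is on the same chromosome, at chr10:28668360-28883818, with 68595790 bp between its end and the start of *Dcn*.

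*Vcan* encodes versican, a large chondroitin sulfate proteoglycan that binds hyaluronan (ENSMUSG00000021614, chr13:89655312-89742509, minus strand). It was the scarcest of the 10 genes, with 14, 5 and 28 counts in WT livers and 89, 60 and 20 counts in *Themis*-KO livers, or 0.642, 0.240 and 1.10 CPM against 3.78, 2.58 and 0.945 CPM. *Themis*-KO 1 and 2 were far above every WT liver, but *Themis*-KO 3 was below WT 3. The fitted difference was 3.59-fold with a wide interval (log2 fold change 1.84, 95% interval 0.46 to 3.23, adjusted p = 0.0873).

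*Fn1* encodes fibronectin, an adhesive glycoprotein bound by integrins and laid down early in a fibrotic matrix (ENSMUSG00000026193, chr1:71585520-71653200, minus strand). WT livers held 1492, 1156 and 1254 CPM of *Fn1*, and *Themis*-KO livers held 1306, 1306 and 1052 CPM. The highest liver was WT 1 and the lowest was *Themis*-KO 3, and the groups overlapped. The log2 fold change was -0.091 (SE 0.14, 95% interval -0.40 to 0.22, adjusted p = 0.678), an interval that holds differences from 0.756-fold to 1.17-fold. The sign of that estimate turned with total-count scaling (0.051) and without WT replicate 1 (0.018). Counts per gene do not separate the splice forms of plasma and cellular fibronectin. An exon of *Apol7d* overlaps *Fn1* by up to 197 bp on the opposite strand, and whether strand was used in counting is not given in the sources used here. Because *Fn1* made up most of the 10 genes' RNA, their summed CPM overlapped between labels, at 1530 to 1851 in WT and 1582 to 1865 in *Themis*-KO livers. The sum of the other 9 did not, at 358 to 398 against 530 to 560. That sum is mostly *Dcn*, *Bgn* and *Sparc*, none of which overlapped, so it is not a further result.

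*Eln* encodes tropoelastin, the core protein of elastic fibres (ENSMUSG00000029675, chr5:134702593-134747323, minus strand). WT livers held 4.17, 5.28 and 5.21 CPM of *Eln*, against 9.94, 8.0 and 9.40 CPM in *Themis*-KO livers. The lowest *Themis*-KO liver was clearly above the highest WT liver. The 1.86-fold difference was the largest among the genes that passed the threshold (log2 fold change 0.90, SE 0.16, adjusted p = 0.0241). *Gm30003*, which is not in the count table, overlaps *Eln* exons by up to 267 bp on the opposite strand.

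*Postn* encodes periostin, a matricellular protein that promotes collagen cross-linking (ENSMUSG00000027750, chr3:54361109-54391037, plus strand). It measured 19.3, 18.1 and 20.4 CPM in WT livers and 32.5, 35.2 and 34.7 CPM in *Themis*-KO livers. Both groups were tight and lay well apart. With a log2 fold change of 0.82 (SE 0.088), or 1.77-fold, *Postn* had the smallest adjusted p of the 10 genes, 0.00936.

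*Sparc* encodes SPARC, or osteonectin, which binds collagen and calcium (ENSMUSG00000018593, chr11:55394500-55423183, minus strand). WT livers held 70.4, 69.1 and 76.3 CPM of *Sparc*, and *Themis*-KO livers held 119, 115 and 110 CPM. Again neither group came near the other. The difference was 1.59-fold (log2 fold change 0.67, SE 0.081, adjusted p = 0.0112).

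*Thbs1* encodes thrombospondin-1, a ligand of CD36 and CD47 that can activate latent TGF-β (ENSMUSG00000040152, chr2:118111876-118127133, plus strand). WT livers held 3.39, 3.22 and 5.56 CPM of *Thbs1*, and *Themis*-KO livers held 26.9, 16.2 and 4.82 CPM. *Themis*-KO 1 and 2 stood far above the WT livers, whereas *Themis*-KO 3 lay below WT 3. Its fitted log2 fold change was the highest of the 10 genes but had a wide interval (1.97, 95% interval 0.69 to 3.25, adjusted p = 0.0626). *Gm29233*, not listed in the count table, overlaps *Thbs1* exons by up to 110 bp on the opposite strand.

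*Thbs2* encodes thrombospondin-2, a related protein that does not activate TGF-β (ENSMUSG00000023885, chr17:14665500-14694235, minus strand). It measured 3.94, 4.08 and 3.67 CPM in WT livers and 5.35, 4.99 and 5.57 CPM in *Themis*-KO livers. Unlike *Thbs1*, its groups did not overlap, yet the difference was small (log2 fold change 0.45, SE 0.14, 1.36-fold) and had an adjusted p of 0.0848. *Thbs1* counts per *Thbs2* count were 0.860, 0.788 and 1.52 in WT and 5.02, 3.25 and 0.864 in *Themis*-KO livers, so *Themis*-KO 3 fell within the WT range.

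**Figure D2:**
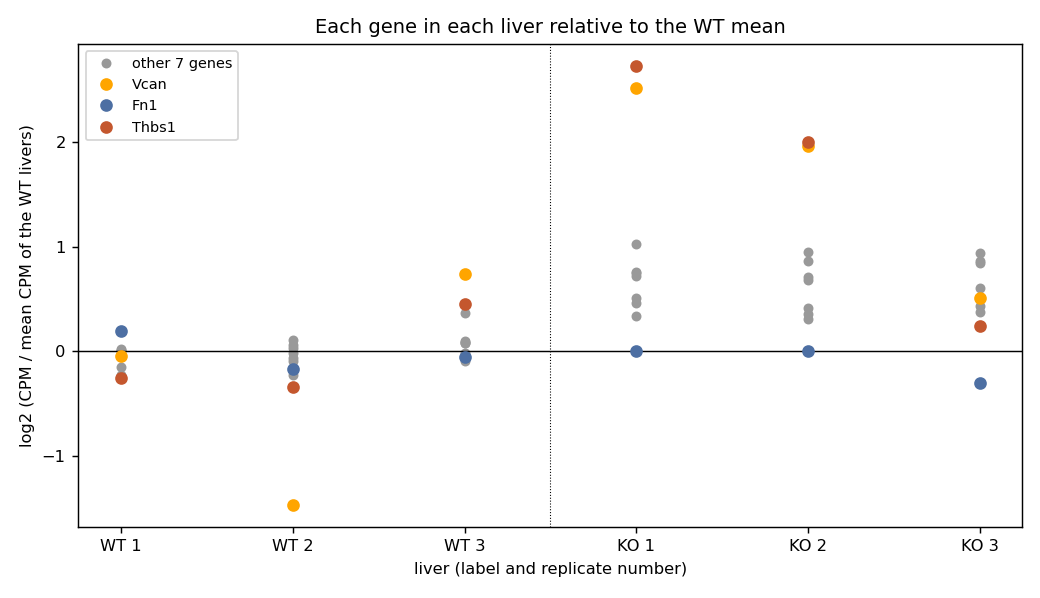
Level of each gene in each liver as log2 of its CPM over the mean CPM of the WT livers (vertical axis), with the 6 livers along the horizontal axis, *Vcan*, *Fn1* and *Thbs1* in colour and the other 7 genes in grey. *Thbs1* reached 2.73 in *Themis*-KO 1, 2.00 in *Themis*-KO 2 and 0.25 in *Themis*-KO 3, while *Fn1* stayed between -0.31 and 0.20 in all 6 livers.

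Spread among the *Themis*-KO livers divided the genes. From the lowest to the highest *Themis*-KO liver, *Thbs1* differed 5.57-fold and *Vcan* 4.0-fold, in the same order of livers, and the other 8 genes differed 1.07-fold to 1.24-fold. *Sparc*, among these 8, had that order of *Themis*-KO livers too. Among WT livers the widest ranges were 4.61-fold for *Vcan*, 1.73-fold for *Thbs1* and 1.52-fold for *Lum*, with WT 3 the highest in each. Without *Themis*-KO replicate 3, *Thbs1* had a log2 fold change of 2.38 (adjusted p = 0.00250) and *Vcan* of 2.20 (adjusted p = 0.0129). Without *Themis*-KO replicate 1, these were 1.36 (adjusted p = 0.190) and 1.38 (adjusted p = 0.273).

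In 7 of the 10 genes every *Themis*-KO liver lay above every WT liver, as it did in 17.7% of all genes tested, and each of these had an exact two-sided permutation p of 0.1. At an unadjusted p under 0.05, 9 genes were higher (16.8% of all genes), and at an adjusted p under 0.1 the same 9 were higher (11.5% of all genes), with *Fn1* the exception in each. DESeq2 called 8 of the 10 higher (8.02% of all genes), *Vcan* and *Thbs1* in addition to the 6.

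**Figure D3:**
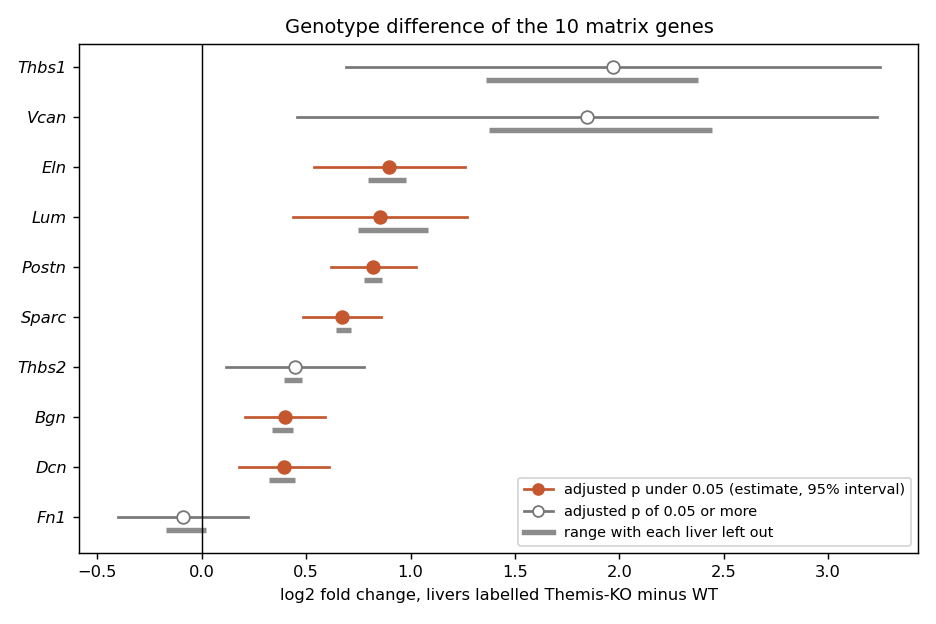
Log2 fold change of each gene between livers labelled *Themis*-KO and WT (points) with its 95% interval (thin lines) and the range of estimates when each liver was left out in turn (thick grey lines), filled where the adjusted p was under 0.05. The 6 filled points lie between 0.39 and 0.90, and *Thbs1* and *Vcan* lie farther out with the widest intervals.

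Leaving out each liver in turn moved the estimate of *Postn* between 0.78 and 0.86, *Sparc* between 0.64 and 0.71, *Eln* between 0.79 and 0.98, *Lum* between 0.75 and 1.08, *Dcn* between 0.32 and 0.45 and *Bgn* between 0.34 and 0.43 on the log2 scale. *Thbs1* moved between 1.36 and 2.38 and *Vcan* between 1.38 and 2.45, lowest in each without *Themis*-KO replicate 1. The number of genes called, however, was 0 of 10 without WT replicate 1 (0.0809% of all genes), 1 without WT replicate 2 (0.128%), 4 without WT replicate 3 (3.24%), 1 without *Themis*-KO replicate 1 (0.0543%), 1 without *Themis*-KO replicate 2 (0.183%) and 8 without *Themis*-KO replicate 3 (15.0%). *Postn* was called in 5 of these 6 fits, with an adjusted p of 0.0516 without WT replicate 1, and *Lum*, *Eln* and *Sparc* in 2 each.

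With the mitochondrial type as a covariate, 0 of the 10 genes and 0% of all genes were called higher, and the 6 genes had adjusted p-values from 0.227 for *Postn* to 0.494 for *Dcn*. That fit sets WT 3, the single WT liver of its type, against the *Themis*-KO livers, and its log2 fold changes were 0.49 for *Lum*, 0.29 for *Dcn*, 0.41 for *Bgn*, 0.81 for *Eln*, 0.74 for *Postn* and 0.59 for *Sparc*. WT 3 was below every *Themis*-KO liver in the 7 genes that did not overlap, as it must be where every *Themis*-KO liver lies above every WT liver. That position therefore adds nothing to the fit with the covariate. With the replicate number as a block, 0 of 10 genes were called (0.117% of all genes), with adjusted p-values of 0.0525 for *Postn*, 0.0643 for *Sparc*, 0.0887 for *Lum*, 0.0912 for *Eln*, 0.115 for *Bgn* and 0.118 for *Dcn*.

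Levels were compared between genes per length, as CPM per kb of the longest coding transcript. In WT livers the order was *Fn1* (156 ± 20.8, SD, n = 3), *Dcn* (94.1 ± 8.37), *Bgn* (40.9 ± 0.685), *Sparc* (31.3 ± 1.67), *Postn* (6.02 ± 0.359), *Lum* (3.14 ± 0.797), *Eln* (1.27 ± 0.161), *Thbs1* (0.694 ± 0.224), *Thbs2* (0.661 ± 0.0354) and *Vcan* (0.0533 ± 0.0348). *Thbs1* and *Thbs2* were within each other's spread, and all other neighbours in that order had ranges that did not overlap. In *Themis*-KO livers the level per kb was 147 ± 17.6 for *Fn1*, 124 ± 4.44 for *Dcn*, 53.9 ± 3.87 for *Bgn*, 49.8 ± 2.03 for *Sparc*, 10.7 ± 0.458 for *Postn* and 5.69 ± 0.375 for *Lum*. There *Fn1* overlapped *Dcn* and *Bgn* overlapped *Sparc*, and *Thbs1*, at 2.73 ± 1.88, overlapped both *Eln* (2.37 ± 0.260) and *Thbs2* (0.900 ± 0.050), above *Vcan* (0.196 ± 0.115). Measured over the union of exons in place of the longest transcript, *Sparc* stood above *Bgn*, *Lum* above *Postn* and *Thbs1* above *Eln* in WT livers.

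**Figure D4:**
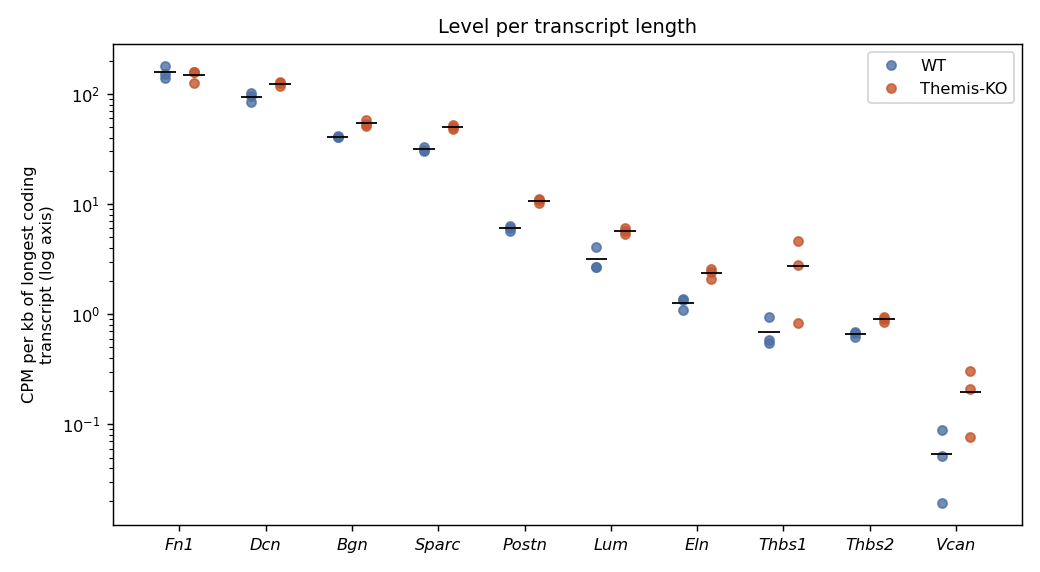
CPM per kb of the longest coding transcript (log axis) for the 10 genes, ordered by their WT mean, with a point for each liver (WT blue, *Themis*-KO orange) and a line for each group mean. The levels span from 0.0533 for *Vcan* to 156 for *Fn1* in WT livers.

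A single fibrillar collagen gene set the scale for a further comparison. *Col1a1*, a chain of type I collagen, measured 21.1, 17.3 and 24.3 CPM in WT livers and 56.9, 48.2 and 33.8 CPM in *Themis*-KO livers (log2 fold change 1.15, adjusted p = 0.0248). *Dcn* counts per *Col1a1* count were 7.08, 9.83 and 7.31 in WT livers and 3.67, 4.59 and 6.61 in *Themis*-KO livers, and *Bgn* counts per *Col1a1* count were 4.79, 5.67 and 4.03 against 2.47, 2.54 and 3.80. For these ratios every *Themis*-KO liver was below every WT liver (exact permutation p = 0.1 each). Both ratios are taken to the same *Col1a1* counts, and *Bgn* counts per *Dcn* count overlapped, so they are not separate results. Ratios of *Postn*, *Sparc* and *Lum* to *Col1a1* overlapped between the labels (exact permutation p = 0.3, 0.2 and 0.6). Ratios to other collagen genes, such as *Col1a2* and *Col3a1*, were not taken, so this split of the genes is given for *Col1a1* alone. *Eln* counts per count of *Fbn1*, which encodes fibrillin-1, the microfibril protein on which elastin is laid down, also overlapped, at 0.717 to 0.982 in WT and 0.729 to 1.04 in *Themis*-KO livers (exact permutation p = 0.7).

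Related genes were counted from lists written by function, where 4.97% of all genes tested were called higher and 4.14% lower. Of 14 other small leucine-rich proteoglycans 8 were tested, 2 were higher and 0 lower, and their median log2 fold change was -0.20, on the other side of 0 from the lumican, decorin and biglycan genes. The 2 were *Fmod*, for fibromodulin (1.16, adjusted p = 0.0439), and *Prelp*, for prolargin (0.35, adjusted p = 0.0398). *Fmod* rested on 11, 17 and 22 counts in WT and 38, 43 and 31 counts in *Themis*-KO livers. Each of these was called in 1 of the 6 fits with a liver left out. Of the other called genes named from the lists below, *Ccn2* was called in all 6 such fits and *Spp1* in 4. The rest were called in 1 or 2 of them. Of 22 other matricellular genes 13 were tested, 4 were higher and 0 lower, with a median of 0.18. *Ccn2*, for connective tissue growth factor, rose by 1.23 on the log2 scale (adjusted p = 0.00926). *Spp1*, for osteopontin, rose by 1.44 (adjusted p = 0.0131), *Sparcl1*, for the SPARC relative hevin, by 1.00 (adjusted p = 0.0136), and *Ccn1*, a relative of *Ccn2*, by 1.79 (adjusted p = 0.0464). The remaining 9 tested did not pass.

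Of 16 elastic fibre genes 13 were tested, 2 were higher and 0 lower, and all 13 had positive estimates with a median of 0.49. The 2 that passed were *Fbn1* (0.85, adjusted p = 0.0255) and *Emilin1*, for an elastin microfibril interface protein (0.49, adjusted p = 0.0386). Of 11 hyaluronan-binding hyalectans, link proteins, hyaluronan synthases and the hyaluronan receptor gene *Cd44*, 4 were tested, with a median of 0.48, and 0 passed, with 1 gene positive and 1 negative where the unadjusted p was under 0.05. *Cd44* had a log2 fold change of 0.88 (adjusted p = 0.105) and *Hapln4*, for a link protein, -0.67 (adjusted p = 0.108).

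Of 20 cell surface receptor genes for these proteins 19 were tested, 3 were higher and 1 lower, with a median of 0.29. *Itgb3*, for the β subunit of an integrin that binds periostin and fibronectin (0.79, adjusted p = 0.0283), *Tlr2*, for a receptor of biglycan (1.04, adjusted p = 0.0389), and *Itga9*, for an integrin α subunit (0.53, adjusted p = 0.0474), were higher. *Sdc2*, for the heparan sulfate proteoglycan syndecan-2, was lower (-0.42, adjusted p = 0.0407), and 1 of 19 is near the 4.14% of all genes called lower. All 22 chondroitin and dermatan sulfate synthesis enzymes were tested, with a median of 0.26. Of these 1 passed, *Chpf*, for a chondroitin polymerizing factor (0.75, adjusted p = 0.0369), a count near the 4.97% of all genes called higher. Of 17 proteases that cut these proteins 14 were tested, 5 were higher and 0 lower, with a median of 0.79, the highest of these lists. *Mmp13*, a collagenase gene, had a log2 fold change of 2.03 (adjusted p = 0.0326), *Mmp2*, a gelatinase gene, of 0.66 (adjusted p = 0.0395), *Mmp14*, for a membrane-bound activator of MMP2, of 0.72 (adjusted p = 0.0407) and *Adamts12*, for a secreted metalloproteinase, of 1.20 (adjusted p = 0.0418).

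**Figure D5:**
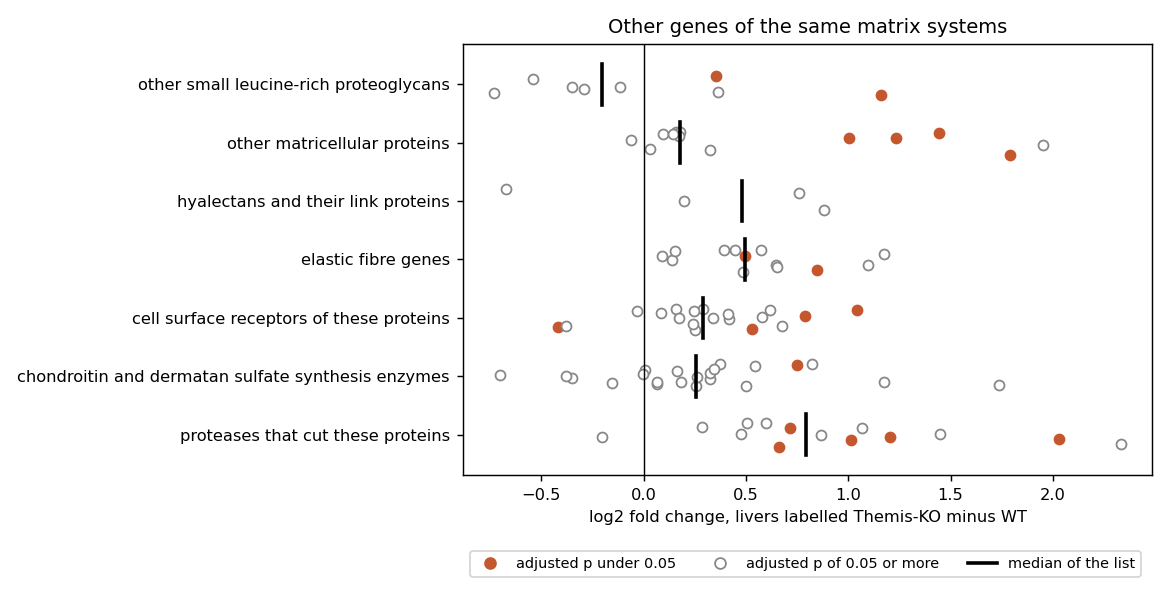
Log2 fold change between livers labelled *Themis*-KO and WT (horizontal axis) of each tested gene in 7 lists of related matrix genes, filled where the adjusted p was under 0.05, with a bar for the median of each list. List medians run from -0.20 for other small leucine-rich proteoglycans to 0.79 for proteases.

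Markers of the cells that a liver sample can hold differed between the labels to different extents. Over all genes tested, 4.97% were called higher and 4.14% lower, and in 17.7% every *Themis*-KO liver lay above every WT liver. Of 12 activated fibroblast markers 10 were tested and 5 were higher, and the list summed to 165 to 196 CPM in WT and 292 to 391 CPM in *Themis*-KO livers, with *Cthrc1* at 0 in some livers. All 10 tested had positive estimates, and in 8 every *Themis*-KO liver lay above every WT liver. Portal fibroblast markers, of which 2 of 7 tested were higher, summed to 97.9 to 100.4 CPM in WT and 165 to 196 CPM in *Themis*-KO livers, most of it *Gas6*. All 7 tested had positive estimates, and in all 7 every *Themis*-KO liver lay above every WT liver. Of the 12 stellate cell markers 1, *Pdgfrb*, was higher, and the list summed to 267 to 295 against 298 to 356 CPM. Of these 12, 9 had positive estimates, and in 4 every *Themis*-KO liver lay above every WT liver. *Lrat*, the retinol-storing enzyme gene and a marker of quiescent stellate cells, had a log2 fold change of 0.12 (adjusted p = 0.476). *Rgs5*, by which the paper marks quiescent stellate cells, had 0.39 (adjusted p = 0.0850) and was among those 4.

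Macrophage markers (3 of 12 higher) summed to 388 to 665 CPM in WT and 640 to 820 CPM in *Themis*-KO livers, and cholangiocyte markers (1 of 8 tested higher) to 29.9 to 33.9 against 35.5 to 67.0 CPM. Endothelial markers (1 of 10 higher) summed to 264 to 278 against 282 to 329 CPM, and markers of platelets, which store thrombospondin-1 (1 of 4 tested higher, *Pf4*), to 4.68 to 4.93 against 6.09 to 6.97 CPM. Vascular smooth muscle markers, with 0 of 4 tested called, summed to 13.1 to 17.0 against 16.2 to 18.4 CPM, and mesothelial markers, with 0 of 4 tested called, to 3.67 to 6.39 against 5.38 to 9.39 CPM. Of the hepatocyte markers 0 of 12 were called, of the T cell markers 1 of 6 tested was lower (*Cd4*), and of the B cell markers 0 of 6 were called. Only 1 of the 12 hepatocyte markers had a positive estimate, and their median log2 fold change was -0.29. No marker was at 0 in all 6 livers, but the portal fibroblast markers *Gli1* and *Clec3b*, the mesothelial markers *Upk3b*, *Upk1b* and *Muc16* and the platelet markers *Gp9*, *Gp6* and *Treml1* were at 0 in some. *Fbln2*, *Mfap4* and *Ltbp2* stand in both a fibroblast and the elastic fibre list. With 4.97% of all genes called higher and 4.14% lower, 1 call in a list was not read as a difference of that cell type. The part of these cell types in the differences of the 10 genes was not tested.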

How the data were processed

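Libraries of 3 WT and 3 *Themis*-KO livers were made from poly(A) RNA with the NEBNext UltraExpress RNA kit. Per the labels, the processing notes of the submitters name cutadapt 2.3, STAR 2.7.8a, RSEM 1.3.3 and GRCm38. What the authors deposited is the estimated count of each gene in each liver, not normalized and in whole numbers. RSEM divides reads that fit several genes, and the annotation release is not given in the sources used here. Coordinates came from GENCODE vM21, which held 25321 of the 25403 listed genes by identifier. Groups and replicate numbers were taken from the labels.

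The count model was edgeR 4.0.16 under R 4.3.3 (filterByExpr, TMM, glmQLFit and glmQLFTest on all 6 livers, genotype as the single term). Benjamini-Hochberg adjustment ran over all 14496 tested genes, and an adjusted p under 0.05 was a call. The biological coefficient of variation was 0.157. DESeq2 1.42.0, 3 other scalings, 2 other filters, 2 other thresholds, a replicate block, the mitochondrial type and each liver left out were alternatives. Single values were compared by exact two-sided permutation tests. Fits were tested on simulated data with changes larger than those of the 6 called genes, which does not show recovery at their size. Every pair of libraries differed by more than sampling noise.

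The 10 genes, the lists and the motifs were chosen with earlier results of these data known. Named beside the 10 genes were *Themis*, up to 4 called genes per list and direction by smallest p (or the 2 with the smallest p where none passed), and the 5 genes most like the 10. *Col1a1*, *Gas6*, *Lrat*, *Rgs5* and the ratios between genes were named after their values were seen.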

Additional observations from a re-analysis of the deposited data

How the results depend on the processing

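Of the 10 genes, 6 were called higher with TMM scaling, with RLE size factors and with at least 10 counts in every liver (where *Vcan* was not tested), 5 with upper quartile scaling, 7 with total counts alone, 8 without a filter, 8 with DESeq2 and 9 at an adjusted p under 0.1. The number was 0 with the replicate block, 0 with the mitochondrial type as a covariate and 0 with a 2-fold minimum, and with each liver left out it ran from 0 to 8. None was called lower under any of these, and 0 were lower at an unadjusted p under 0.05. Under the block 8 genes, and with the covariate 6, were higher at an unadjusted p under 0.05. *Fn1* turned from -0.091 to 0.051 with total counts alone and to 0.018 without WT replicate 1, within a range of -0.17 to 0.018 over the livers left out. Total counts alone moved the median of all genes to 0.15, above the *Fn1* value, and the share of calls that were higher from 54.6% to 78.9%. Over all genes, calls were 721 higher and 600 lower, 1449 and 387 with total counts, 1207 and 1072 with DESeq2, 1212 and 967 without a filter, 17 and 45 with the replicate block, 0 and 3 with the covariate, and 8 to 2228 higher and 12 to 2039 lower with each liver left out. The cause of these changes was not tested. Same-numbered livers deviated from their group means with correlations of 0.00028, -0.24 and -0.16, which gives no sign that the numbers pair the samples. The study speaks of pairs of livers, and what makes a pair is not given in the sources used here. For *Themis* and the genes named from the 7 lists of related matrix genes, 104 values across the alternatives lost the call, 4 gained it and 172 kept it or stayed without it, and 0 changed sign, while genes named only from the marker lists or by likeness were not run. *Vcan* had 5 to 28 counts in WT livers, the fewest of the 10 genes. Among the genes named from the lists, *Fmod* had 11 to 22 and *Adamts12* 13 to 26 counts in WT livers.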

Other observations

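The genes outside the 10 whose level over the 6 livers was most like the mean standardized log2 CPM of the 10 were *Ccdc80* (Pearson's r = 0.999), *Oas1a* (0.999), *Col1a2* (0.999), *Fbn1* (0.997) and *Nck2* (0.996). The 6 points fall into the label groups, and the value is a description. The mean profile was -0.73, -0.93 and -0.50 in WT livers and 0.96, 0.76 and 0.43 in *Themis*-KO livers, in units of SD.

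*Ccn1*, named by its adjusted p, measured 8.35, 9.74 and 10.1 CPM in WT livers and 53.4, 31.4 and 12.8 CPM in *Themis*-KO livers, in the same order of *Themis*-KO livers as *Thbs1* and *Vcan*. *Sparc*, *Col1a1* and *Spp1* had that order too, and its share over all genes was not counted. *Ccn2* did not follow that order, at 31.1, 30.0 and 36.6 CPM in *Themis*-KO livers against 14.3, 15.2 and 12.1 CPM in WT livers. These genes were set side by side after their values were seen.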
